A study of Mus musculus with 69 samples.

Results

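F13a1, Mgl2, Mrc1, Cd209f, Folr2, Cd163, Cbr2, Ltc4s, Fcrls and Ednrb are 10 genes that mouse macrophage studies use as marks of resident-like or alternatively activated macrophages. They were chosen by their readout in these libraries: F13a1, Mgl2 and Mrc1 differ between Trem2, Pik3c3 or Npc1 knockout macrophages and controls, and the other genes were placed around them. They are 10 of the 56980 genes in the deposited count table, and all 10 were among the 12008 genes that passed a filter on low counts. Cd209f passed that filter through the Trem2 knockout cells of day 13, the group in which it was detected in every library. Because Trem2, Pik3c3 and Npc1 cells were selected on, the values there are a description and carry no test. Tests are given for Atp6v1a, Ctsd and Grn knockout cells and for the control cells over time. These use the same Rosa26 libraries against which the genes were chosen, so they are not independent of the choice on the control side.

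Macrophages that live in healthy tissue clear dying cells, haemoglobin complexes and glycoproteins, and they carry a set of endocytic receptors and lectins for that work. Interleukin-4, acting through STAT6, raises an overlapping set in culture, among them the lectins Mrc1 and Mgl2, together with effector genes such as Arg1, Retnla and Chil3. Trem2 is a lipid-sensing receptor of macrophages and microglia, Pik3c3 is the lipid kinase VPS34 of autophagy and endosomal traffic, and Npc1 moves cholesterol out of the lysosome. Atp6v1a is a subunit of the proton pump that acidifies the lysosome, Ctsd is the lysosomal protease cathepsin D, and Grn encodes progranulin, which is delivered to lysosomes.

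All libraries are of primary mouse macrophages, made from wild-type bone marrow with M-CSF at 50 ng/mL. M-CSF is the cytokine under which marrow progenitors become macrophages. Each biological replicate was a pool of 6 mice, and the cells were harvested on day 7, frozen, and thawed for editing. Cas9 and guide RNA were delivered as a ribonucleoprotein complex against Trem2, Pik3c3, Npc1, Atp6v1a, Ctsd or Grn, or, in the controls, against Rosa26, a locus commonly used as a harmless target. RNA was taken at 4 or 13 days after editing: the series design gives these numbers as days and the sample labels give them as hours, and days are used here. Each of the 14 groups of 1 target and 1 day holds 5 libraries, except the Npc1 cells of day 4, which hold 4 (replicates 2 to 5). All groups, the controls included, shared the wild-type background, M-CSF and Cas9 delivery, and no interleukin-4 is named in the labels. The labels give no share of edited alleles, so each group is taken as an edited population and not as a clone.

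The libraries hold 3'-end tags with molecular identifiers, and their totals ran between 2194566 and 4688285 counts with a median of 3404743. RNA integrity numbers lay between 8.6 and 10 and were missing for 4 libraries. Every targeted transcript was lower in its own knockout cells at both days, at 17.2% of the Rosa26 level for Grn on day 13 up to 73.5% for Atp6v1a on day 13, although tags of an edited transcript can still be counted. All 7 macrophage markers were detected in every group, with summed levels between 7302 and 24190 CPM per library (CPM scale every library to 1 common total). Of the 69 libraries, 47 were made with the labels' Regular protocol and 22 with Low-input, which was used for 1 library of day 4 (Trem2 replicate 1) and for 21 libraries of day 13: 5 Trem2, 4 Pik3c3, 3 Npc1, 3 Atp6v1a, 3 Ctsd, 2 Grn and 1 Rosa26. Protocol was therefore a term in the fit. Low-input libraries gave higher levels of Ltc4s (log2 difference 1.08 ± 0.12, SE), Folr2 (0.60 ± 0.05) and Fcrls (0.48 ± 0.10), against a background of 34.9% of all genes called higher. They gave lower levels of Mrc1 (-0.76 ± 0.07) and Mgl2 (-0.58 ± 0.17), against 32.1% of all genes called lower. Cd209f was also called lower there, on 10 counts of a single Regular library.

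The label of the set was only partly borne out by other genes of the same states. Of the classical targets of interleukin-4, Arg1 had 61.1 counts, Retnla 12, Chil3 80.8, Ccl17 1 and Ccl22 18, summed over all 69 libraries (the counts are estimates and need not be whole). Among marks of resident macrophages, Timd4 had 16.0 counts, Vsig4 22 and Clec4f 13 in the same 69 libraries. Stab1, Selenop, Mertk, Adgre1 and the complement genes C1qa and C1qb, which resident macrophages also carry, passed the count filter. The genes below are therefore described by name and not as a proven cell state.

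RefSeq promoter windows (GRCm38.p6, 250 bases before to 50 after each transcription start) held 12 entries for the 10 genes. The 5 windows shown are those of the 3 genes that name the set and of Ltc4s and Ednrb, whose levels followed F13a1 most closely across groups. Capitals mark matches, on either strand, to any of 6 motifs: GGAAGT (bound by PU.1 and other ETS factors), TGCTGAC (MAF), TGANTCA (AP-1), TTCNNNNGAA (STAT6), CACGTG (an E-box of TFEB and related factors) and TGTTCT (part of the glucocorticoid receptor site).
F13a1, chr13:37049164-37049463, minus strand: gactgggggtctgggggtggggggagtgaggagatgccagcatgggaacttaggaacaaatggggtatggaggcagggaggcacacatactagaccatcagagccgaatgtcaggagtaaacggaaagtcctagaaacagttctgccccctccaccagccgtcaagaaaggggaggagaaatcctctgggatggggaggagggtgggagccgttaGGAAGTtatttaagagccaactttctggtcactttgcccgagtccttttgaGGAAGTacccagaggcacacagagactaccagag
Mgl2, chr11:70130107-70130406, plus strand: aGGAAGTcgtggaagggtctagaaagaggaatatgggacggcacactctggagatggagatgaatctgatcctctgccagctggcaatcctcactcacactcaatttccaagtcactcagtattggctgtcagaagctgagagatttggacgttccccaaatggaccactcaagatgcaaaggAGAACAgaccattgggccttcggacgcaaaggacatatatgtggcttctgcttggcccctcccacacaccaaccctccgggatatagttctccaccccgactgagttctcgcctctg
Mrc1, chr2:14229164-14229463, plus strand: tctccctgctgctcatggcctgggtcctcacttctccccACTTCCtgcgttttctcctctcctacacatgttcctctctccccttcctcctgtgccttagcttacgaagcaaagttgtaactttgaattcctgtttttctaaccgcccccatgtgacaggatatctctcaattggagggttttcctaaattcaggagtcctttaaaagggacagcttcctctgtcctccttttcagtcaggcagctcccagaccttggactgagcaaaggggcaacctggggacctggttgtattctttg
Ltc4s, chr11:50238483-50238782, minus strand: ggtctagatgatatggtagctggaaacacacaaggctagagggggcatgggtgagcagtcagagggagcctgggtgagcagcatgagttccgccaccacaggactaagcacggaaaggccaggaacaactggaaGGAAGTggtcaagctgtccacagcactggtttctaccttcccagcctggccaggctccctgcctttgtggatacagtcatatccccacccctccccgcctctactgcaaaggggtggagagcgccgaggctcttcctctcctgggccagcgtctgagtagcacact
Ednrb, chr14:103843652-103843951, minus strand: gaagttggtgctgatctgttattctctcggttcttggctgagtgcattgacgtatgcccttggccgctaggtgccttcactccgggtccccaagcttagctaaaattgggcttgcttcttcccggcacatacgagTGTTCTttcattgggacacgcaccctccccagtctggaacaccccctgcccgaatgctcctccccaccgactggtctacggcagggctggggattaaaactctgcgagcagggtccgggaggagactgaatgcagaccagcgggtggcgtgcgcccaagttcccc

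The F13a1 window shown holds 2 GGAAGT matches, 1 on each side of the start, and the other F13a1 window (chr13:37050195-37050494, minus strand) holds no match to any of the 6 motifs. Single GGAAGT matches begin at position -249 in Mgl2, -211 in Mrc1 (on the other strand) and -116 in Ltc4s, counted from the start, and the Ednrb window has none. Over all entries, 6 of the 12 windows hold GGAAGT, against 23.8% of the 32851 mouse promoters searched. TGTTCT was found in 5 of 12 (19% of all promoters), TGANTCA in 2 (7.81%), TTCNNNNGAA in 1 (6.95%), TGCTGAC in 1 (4.67%) and CACGTG in 0 (7.15%). The STAT6-type TTCNNNNGAA match was in Cbr2. These are letter matches in short windows and were not tested as binding sites.

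F13a1 encodes the A subunit of coagulation factor XIII, a transglutaminase that crosslinks fibrin and extracellular matrix. In Trem2 cells of day 4 it read 149, 104, 124, 105 and 80 CPM in the 5 replicates, against 11.1, 9.9, 8.47, 13.6 and 10.4 CPM in Rosa26 cells of day 4. The Trem2 cells of day 13 had 92.6, 109, 136, 72.9 and 73.7 CPM, against 9.69, 4.24, 7.33, 7.75 and 7.09 CPM in Rosa26 cells of day 13. Every Trem2 library lay above every library of any other target on both days. The fitted log2 differences were 3.31 ± 0.19 at day 4 and 3.52 ± 0.25 at day 13 (± SE throughout).

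At day 4, F13a1 was 18.7, 20, 23.4, 20.6 and 14.6 CPM in Pik3c3 cells, every library above the Rosa26 range of that day. Npc1 cells of day 4 had 17.7, 18, 14.5 and 13.2 CPM, and their range of 13.2 to 18 CPM overlapped the Rosa26 range of 8.47 to 13.6 CPM. By day 13 the same knockouts lay on the other side of the controls: Pik3c3 cells had 1.37, 1.28, 2.01, 1.43 and 2.87 CPM and Npc1 cells 1.78, 1.28, 2.06, 1.52 and 1.98 CPM, all below the lowest Rosa26 library of that day. The log2 difference was 0.88 ± 0.21 at day 4 and -2.13 ± 0.36 at day 13 in Pik3c3 cells, and 0.58 ± 0.22 and -2.17 ± 0.35 in Npc1 cells. These comparisons share the Rosa26 libraries of each day.

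The knockouts that were not used to choose the genes showed F13a1 low at day 13. Atp6v1a cells had 1.57, 0.68, 1.33, 2.34 and 1.25 CPM and Grn cells 2.52, 0.492, 0.888, 1.34 and 1.24 CPM, with no library of either reaching the lowest Rosa26 value. F13a1 fell by 2.48 on the log2 scale in Atp6v1a cells (SE 0.36, edgeR adjusted p = 7.66e-08) and by 2.53 in Grn cells (SE 0.37, adjusted p = 2.17e-07). These levels rest on few counts, 27 in Atp6v1a cells and 22 in Grn cells summed over 5 libraries each, against 108 in Rosa26 cells of day 13. In Ctsd cells of day 13 it was 5.25, 1.91, 7.16, 8.52 and 6.14 CPM, which overlaps the Rosa26 range, and the log2 difference of -0.43 ± 0.28 did not pass the test (adjusted p = 0.661). At day 4 none of the 3 passed: F13a1 differed by -0.85 ± 0.25 in Atp6v1a cells (adjusted p = 1), by 0.35 ± 0.22 in Ctsd cells and by -0.24 ± 0.23 in Grn cells. All 5 Atp6v1a libraries of day 4, at 2.75 to 8.14 CPM, lay below the lowest Rosa26 library of that day. How many of all genes separate in this way was not counted. In that comparison 259 of 12008 genes had an edgeR p under 0.05 before adjustment. In the order of all 14 group means after the protocol difference was removed, both Trem2 groups stood first and apart, and every other neighbouring pair of groups overlapped in range.

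**Figure D1:**
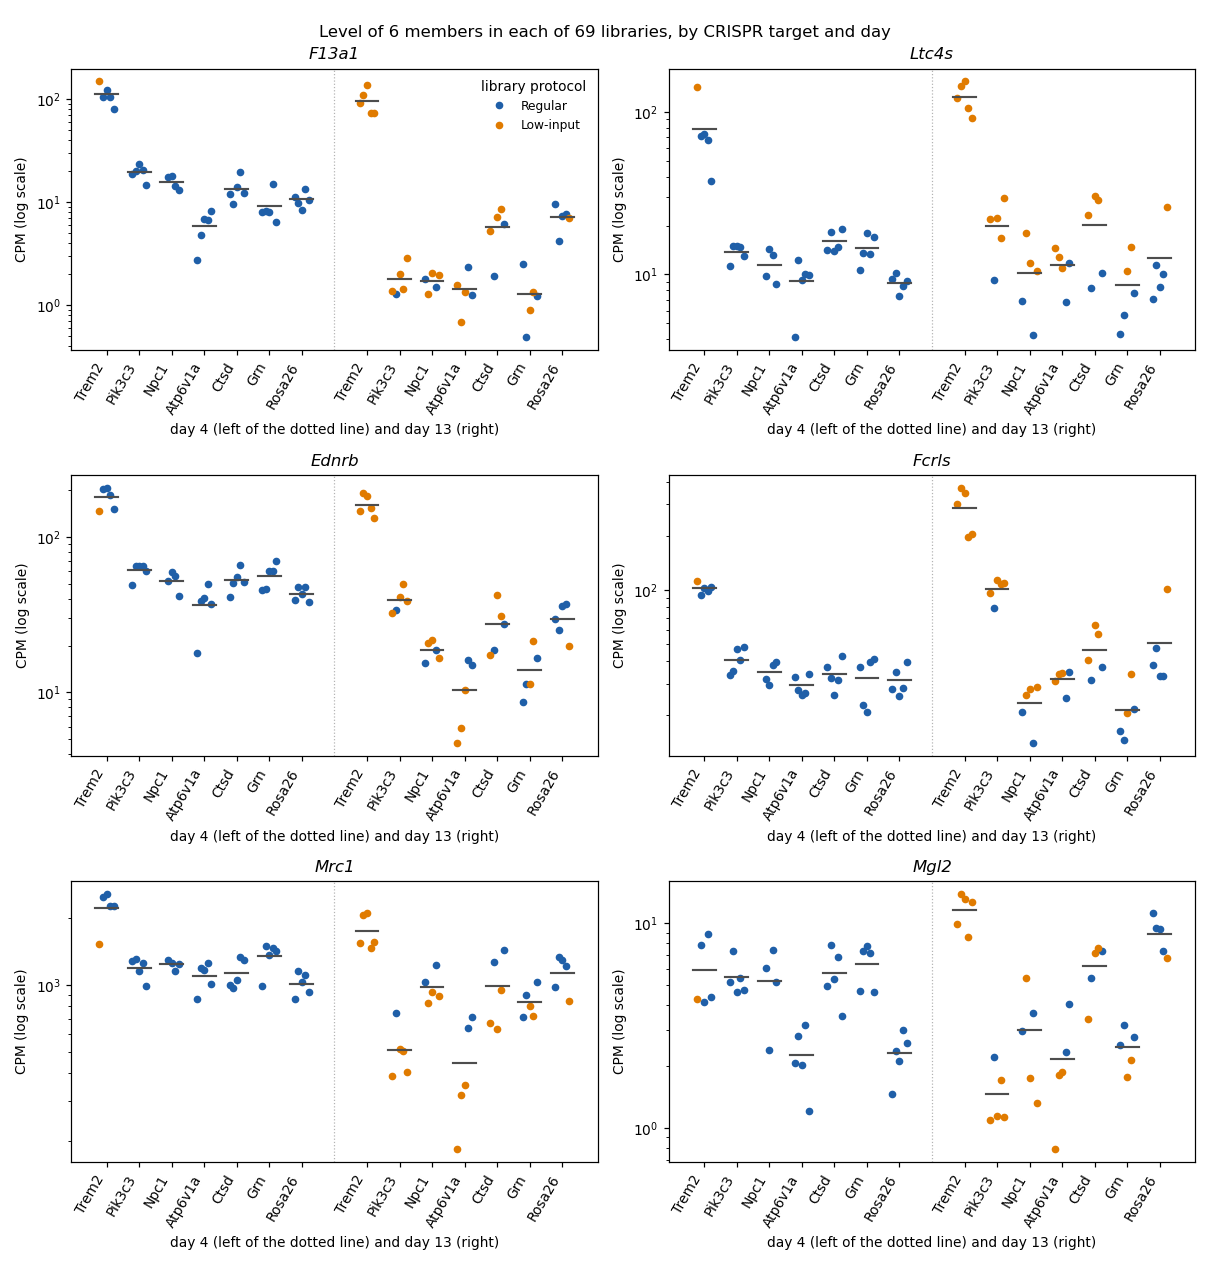
CPM of 6 genes (F13a1, Ltc4s, Ednrb, Fcrls, Mrc1 and Mgl2) in each of 69 libraries on a log axis, by CRISPR target, with day 4 left and day 13 right of the dotted line; points are libraries, coloured by protocol, and horizontal bars are group means. F13a1 sits between 72.9 and 149 CPM in Trem2 cells and under 3 CPM in the Pik3c3, Npc1, Atp6v1a and Grn cells of day 13.

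Mrc1 (CD206) is a mannose receptor that takes up glycoproteins, and it was read deeply, with at least 698 counts in each library. Trem2 cells had 1531, 2467, 2555, 2252 and 2245 CPM at day 4, against 861, 1149, 1024, 1100.1 and 925 CPM in Rosa26 cells, and 1538, 2048, 2098, 1455 and 1561 CPM at day 13, against 980.0, 1334, 1293, 1217 and 846 CPM. The groups did not overlap at either day, and the log2 differences were 1.24 ± 0.13 and 1.17 ± 0.14. Pik3c3 cells differed by 0.25 ± 0.13 at day 4 and by -0.74 ± 0.13 at day 13, and Npc1 cells by 0.30 ± 0.13 and 0.03 ± 0.13.

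In Atp6v1a cells of day 13, Mrc1 was 183, 320.1, 356, 642 and 719 CPM, all below the Rosa26 range of 846 to 1334 CPM. It fell by 1.24 on the log2 scale (SE 0.13, adjusted p = 5.99e-12). Within the Regular libraries the difference was -0.90, and within the Low-input libraries, with a single control, -1.59. Grn cells differed in direction between the days: Mrc1 rose at day 4 (0.42 ± 0.13, adjusted p = 0.0265), with 986, 1498, 1359.6, 1467 and 1409.9 CPM. That call was lost without Grn replicate 2, 3 or 4 or Rosa26 replicate 1, 3 or 5 (adjusted p of 0.053 to 0.0901, each left out alone). At day 13 Grn cells had 714, 901, 801, 726 and 1031 CPM and the difference of -0.23 ± 0.13 did not pass (adjusted p = 0.182). Within protocol it passed in Regular libraries (-0.35, adjusted p = 0.0267) and not in Low-input ones (-0.07, adjusted p = 0.926). Ctsd cells differed by 0.18 ± 0.13 and 0.00 ± 0.13, neither past the test.

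Mgl2 (CD301b) is a lectin for galactose and N-acetylgalactosamine that interleukin-4 raises in mouse macrophages, and it was thinly read, at 3 to 45 counts per library. Trem2 cells had 4.27, 7.88, 4.13, 8.91 and 4.38 CPM at day 4, all above the 1.47, 2.39, 2.11, 3.02 and 2.61 CPM of Rosa26 cells, and 9.95, 13.9, 13.1, 8.54 and 12.7 CPM at day 13, overlapping the 11.2, 9.53, 9.33, 7.29 and 6.8 CPM of Rosa26 cells. The log2 differences were 1.42 ± 0.29 and 0.79 ± 0.26. In Pik3c3 cells Mgl2 was 5.19, 7.36, 4.62, 5.4 and 4.73 CPM at day 4 and 1.09, 2.23, 1.15, 1.72 and 1.13 CPM at day 13, a log2 difference of 1.24 ± 0.30 and then -2.27 ± 0.32. Npc1 cells differed by 1.16 ± 0.31 at day 4 and by -1.38 ± 0.27 at day 13.

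Among the tested knockouts Mgl2 rose at day 4 in Grn cells, with 4.66, 7.34, 7.76, 7.18 and 4.6 CPM (log2 difference 1.43 ± 0.29, adjusted p = 0.000536). It also rose in Ctsd cells of day 4, with 4.93, 7.88, 5.35, 6.81 and 3.52 CPM (1.27 ± 0.30, adjusted p = 0.0442). All 5 libraries of both groups lay above the highest Rosa26 library of day 4. The Ctsd call was lost without any single library of the 10 compared, Ctsd replicate 5 excepted (adjusted p of 0.0685 to 0.307). By day 13 Mgl2 was 0.785, 1.81, 1.87, 2.34 and 4.03 CPM in Atp6v1a cells and 2.53, 3.2, 1.78, 2.15 and 2.79 CPM in Grn cells, all below the lowest Rosa26 library. It fell by 1.89 on the log2 scale in Atp6v1a cells (SE 0.28, adjusted p = 1.97e-07) and by 1.67 in Grn cells (SE 0.28, adjusted p = 3.19e-06). Ctsd cells of day 13 differed by -0.35 ± 0.25 (adjusted p = 0.707). In the controls themselves Mgl2 rose over time, by 2.04 ± 0.28 (adjusted p = 1.68e-08), so the day 13 deficits stand against a raised control level. The last 300 bases of Mgl2 transcripts shared 13.5% of their 31-base words with other genes, H2-Q6 foremost, so a part of its tags could be misassigned.

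Cd209f is a C-type lectin of the DC-SIGN family. It was counted in 13 of 69 libraries. All 5 Trem2 libraries of day 13 held it, at 6.73, 7.14, 9.36, 3.13 and 4.24 CPM and 92 counts in all, against 2 counts in 2 of the 5 Rosa26 libraries of day 13. The ratio, scaled for library size and with no protocol term, was 45.5 (95% interval 12.3 to 382, counting error only), and it describes the comparison and group through which the gene was kept. The fitted log2 difference with the protocol term was 7.15 ± 1.03, a value that depends on the prior count and on that term. All 5 of these Trem2 libraries were Low-input, against 1 of the 5 Rosa26 libraries. For Cd209f the term was -2.39 ± 0.76 (Low-input over Regular), called on 10 counts of a single Regular library. Cd209f was not detected in Rosa26 cells of day 4, where a count of 0 allows up to 0.167 CPM, and it had 1 count in Trem2 cells of day 4. Pik3c3 cells of day 13 had 10 counts, all in replicate 2, the group's only Regular library, and the ratio to Rosa26 cells was 4.46 (0.951 to 41.9). The other groups had at most 4 counts each. Its relatives Cd209a to Cd209g were near absent throughout, with sums over all 69 libraries of 2 for Cd209a, 2 for Cd209d, 3 for Cd209c, 6.33 for Cd209b, 8 for Cd209e and 9.04 for Cd209g.

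Folr2, a folate receptor of resident macrophages, and Cd163, the scavenger receptor for haptoglobin-haemoglobin complexes, did not share the gain in Trem2 cells. Folr2 was 821, 502, 533, 565 and 516 CPM in Trem2 cells of day 4, where replicate 1 is the Low-input library, against 865, 943, 869, 919 and 821 CPM in Rosa26 cells. The 4 Regular libraries lay far below the controls and the Low-input one just below the lowest of them. The log2 difference was -0.75 ± 0.08 at day 4 and -0.37 ± 0.09 at day 13. At day 13 the direction of Folr2 depends on the protocol term: the mean was 771 ± 117 CPM in Trem2 cells, all Low-input, and 689 ± 134 CPM in Rosa26 cells (SD, n = 5 each), of which the one Low-input library read 928 CPM.

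Folr2 fell in Atp6v1a cells of day 13, at 604, 685, 709, 434 and 379 CPM, by 0.64 on the log2 scale (SE 0.09, adjusted p = 9.55e-09). The pooled ranges overlap. Within protocol, the 2 Regular Atp6v1a libraries read below all 4 Regular controls (-0.71, adjusted p = 2.62e-06) and the 3 Low-input ones below the single Low-input control, a difference that did not pass there (-0.49, adjusted p = 0.0765). Cd163 was thin, at 6 to 45 counts per library. It read 2.88, 3.62, 1.6, 3.22 and 3.51 CPM in Atp6v1a cells of day 13, against 4.1, 6.62, 4.67, 7.93 and 5.23 CPM in Rosa26 cells, with no overlap, and fell by 1.01 (SE 0.29, adjusted p = 0.00576). Within protocol the Cd163 difference was -0.84 in Regular (adjusted p = 0.107) and -0.94 in Low-input libraries (adjusted p = 0.344), neither past the test. Pik3c3 cells of day 13 showed a similar pair of values, with log2 differences of -0.58 ± 0.09 for Folr2 and -1.09 ± 0.31 for Cd163. In Grn and Ctsd cells neither gene passed the test on either day.

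Ltc4s makes leukotriene C4 from leukotriene A4 and glutathione, and Cbr2 is a carbonyl reductase. Ltc4s was 142, 70.6, 73.3, 66.6 and 37.8 CPM in Trem2 cells of day 4, against 9.39, 10.2, 7.4, 8.55 and 9.12 CPM in Rosa26 cells, and 122, 144, 154, 106 and 92.1 CPM in Trem2 cells of day 13, against 7.08, 11.4, 8.33, 10 and 25.9 CPM, the last control value being the Low-input library. No ranges overlapped. The log2 differences were 2.81 ± 0.19 and 2.46 ± 0.20, and 2.27 within the Low-input libraries of day 13.

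Ltc4s rose in Grn cells of day 4, with 10.6, 13.6, 18, 13.3 and 17 CPM (0.72 ± 0.22, adjusted p = 0.0254), all above the Rosa26 range, a call lost without Grn replicate 3 or 5 or Rosa26 replicate 3 or 4 (adjusted p of 0.0605 to 0.0993). It fell in Grn cells of day 13, with 4.32, 5.66, 10.4, 14.8 and 7.74 CPM (-0.75 ± 0.23, adjusted p = 0.00995). Replicates 3 and 4 of those Grn cells are Low-input, and the differences within protocol were -0.54 in Regular and -0.98 in Low-input libraries, neither past the test on its own. The pooled call was lost without Grn replicate 3 (adjusted p = 0.0512) or Rosa26 replicate 5 (0.0743). The fall in Atp6v1a cells of day 13 (-0.60 ± 0.22, adjusted p = 0.0356) was -1.02 within the Low-input libraries. In the Regular libraries it was -0.06 (adjusted p = 0.926). Leaving out Atp6v1a replicate 2, 3 or 4 or Rosa26 replicate 2, 4 or 5 ended the call (adjusted p of 0.0533 to 0.189).

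Cbr2 was 167, 122, 127, 129.6 and 83.6 CPM in Trem2 cells of day 4, against 19.4, 34, 25.1, 31.7 and 24.8 CPM in Rosa26 cells, and 25, 26.4, 26.2, 21.4 and 22.9 CPM in Trem2 cells of day 13, against 4.47, 3.18, 9, 6.38 and 5.23 CPM. The ranges were apart on both days, with log2 differences of 2.15 ± 0.17 and 1.92 ± 0.27. Rosa26 cells themselves lost Cbr2 with time, by 2.32 on the log2 scale (SE 0.24, adjusted p = 1.72e-12), the strongest time effect among the 7 members that passed. Grn cells of day 13 had 3.96, 1.23, 3.78, 4.02 and 2.17 CPM and fell further (-0.88 ± 0.34, adjusted p = 0.0448), although their range overlaps the controls and the call was lost without Grn replicate 2, 3 or 5 or Rosa26 replicate 3 or 4 (adjusted p of 0.056 to 0.225). Atp6v1a cells of day 13, at 3.14, 7.01, 6.94, 6.73 and 10 CPM, did not differ detectably (0.15 ± 0.29, adjusted p = 0.756). Cbr2 shares 33% of its last-300-base words with Gm11771, so its tags could be divided between both loci.

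Fcrls is a scavenger receptor-like member of the Fc receptor-like family known as a mark of mouse microglia, and Ednrb is the endothelin B receptor. Fcrls was 112, 93.5, 103, 98.3 and 103 CPM in Trem2 cells of day 4, against 27.9, 34.8, 25.6, 28.2 and 39.7 CPM in Rosa26 cells, and 303, 373, 347, 198 and 207 CPM at day 13, against 38, 47.6, 33, 33.3 and 102 CPM. Its lowest Trem2 library of day 13 was above the single Low-input control of 102 CPM, and the log2 differences were 1.60 ± 0.17 and 2.10 ± 0.18. Unlike F13a1, Fcrls was not low in Pik3c3 cells of day 13, at 95.7, 79.6, 114, 108 and 109 CPM. Only replicate 2 (79.6 CPM) is Regular, and the 4 Low-input libraries lay around the single Low-input control of 102 CPM. The log2 difference was 0.73 ± 0.18. It was 1.05 within Regular libraries (1 against 4) and 0.14 within Low-input libraries (4 against 1). In Npc1 cells of day 13 Fcrls read 20.8, 25.8, 27.9, 13.9 and 28.5 CPM, all below the Rosa26 range (-1.34 ± 0.19).

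Fcrls fell in Grn cells of day 13, with 16.2, 14.5, 20.4, 33.8 and 21.7 CPM (-1.29 ± 0.19, adjusted p = 2.03e-07), where 1 Low-input library of 33.8 CPM exceeded the lowest control. It fell in Atp6v1a cells of day 13, with 31.1, 33.9, 34.2, 24.9 and 34.8 CPM (-0.89 ± 0.18, adjusted p = 8.26e-05). In Grn cells the within-protocol differences were -1.04 and -1.84. In Atp6v1a cells they were -0.43 in Regular (adjusted p = 0.198) and -1.63 in Low-input libraries. Without the single Low-input control the difference over all other libraries was -0.59 (adjusted p = 0.0219), still past the test.

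Ednrb was 148, 202, 208, 187 and 152 CPM in Trem2 cells of day 4, against 39, 47.9, 42.8, 47.8 and 38.1 CPM in Rosa26 cells, and 146, 192, 184, 154 and 132 CPM in Trem2 cells of day 13, against 29.8, 25.1, 36, 36.9 and 19.9 CPM. The groups were far apart, with log2 differences of 2.07 ± 0.18 and 2.56 ± 0.22. Ednrb fell in Atp6v1a cells of day 13, with 4.71, 5.88, 10.4, 16.1 and 15 CPM (-1.51 ± 0.24, adjusted p = 5.42e-07), all below every control of that day. It also fell in Grn cells of day 13, with 8.65, 11.3, 11.3, 21.5 and 16.7 CPM (-0.98 ± 0.23, adjusted p = 0.000673). That fall was -1.26 within Regular libraries and -0.22 within Low-input libraries (adjusted p = 0.83). Ednrb differed by -0.62 ± 0.22 in Npc1 cells and by 0.52 ± 0.22 in Pik3c3 cells of day 13. Both values depend on the protocol. For Npc1 cells the difference was -0.89 in Regular and 0.00 in Low-input libraries. For Pik3c3 cells it was 0.11 in Regular (1 library against 4) and 1.10 in Low-input libraries (4 against 1).

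Taken over the tested comparisons, 8 of the 10 genes fell in Atp6v1a cells of day 13 and 0 rose, where 11.6% of all genes tested were called lower. The genes outside the count were Cd209f and Cbr2. The median log2 difference of 9 genes (Cd209f left out, being near 0 in most groups) was -1.01, beside 0.02 over all genes. In Grn cells of day 13, 6 of 10 fell (F13a1, Mgl2, Cbr2, Ltc4s, Fcrls and Ednrb) and 0 rose, where 12.7% of all genes were called lower, with a median of -0.88 beside -0.01. At day 4 in Grn cells, 3 of 10 rose (Mgl2, Mrc1 and Ltc4s), where 4.45% of all genes were called higher.

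In Ctsd cells Mgl2 was the 1 gene of 10 that rose at day 4, where 0.05% of all genes were called higher and 0.075% lower. Ltc4s and Cbr2 did not pass in Ctsd cells of day 4. In Grn cells of day 4 Ltc4s was called and Cbr2 was not (0.51 ± 0.18, edgeR adjusted p = 0.0602). Ltc4s was 14.2, 18.3, 13.9, 14.9 and 18.9 CPM in Ctsd cells of day 4 (0.87 ± 0.21, adjusted p = 0.0673). Cbr2 was 40, 43.6, 38.5, 48.3 and 43.8 CPM there (0.68 ± 0.18, adjusted p = 0.103). At day 13, 0 of 10 passed, where 0.2% of all genes were called in either direction. In Atp6v1a cells of day 4, 0 of 10 passed, where 0.00833% of all genes did, that is 1 gene of 12008.

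For the comparisons that chose the genes the medians are given without a count. The median log2 difference of the 9 genes was 1.60 in Trem2 cells of day 4 and 1.92 at day 13. It was 0.51 in Pik3c3 cells of day 4 and -0.58 at day 13, and 0.30 in Npc1 cells of day 4 and -0.62 at day 13. The medians over all genes in these 6 comparisons lay between -0.02 and 0.03. In bulk RNA, fewer cells of a kind and less RNA per cell cannot be told apart, here or in any comparison above.

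**Figure D2:**
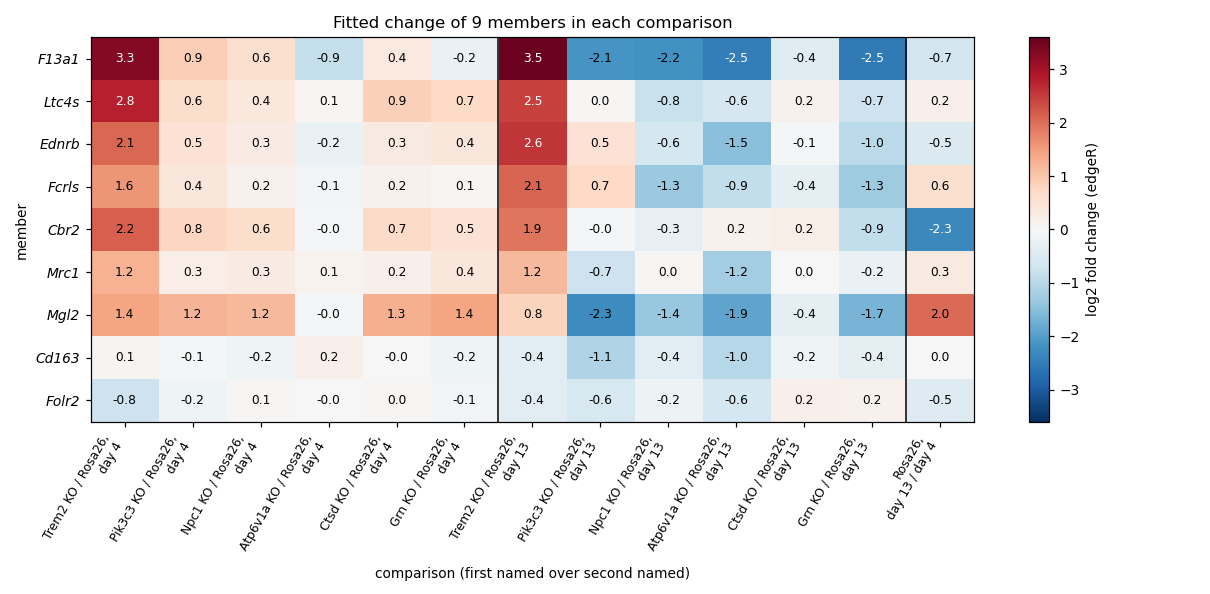
Fitted log2 fold changes of 9 genes (Cd209f left out) for each knockout over Rosa26 at day 4 (left block) and day 13 (middle block) and for Rosa26 cells of day 13 over day 4 (right column); red is higher and blue lower in the first-named group. F13a1 reads 3.3 and 3.5 in Trem2 cells and between -2.1 and -2.5 in the Pik3c3, Npc1, Atp6v1a and Grn cells of day 13.

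The control cells moved over time as well, in a comparison made wholly of libraries that served as controls when the genes were chosen. In Rosa26 cells of day 13 relative to day 4, 3 of the 10 genes rose, where 15% of all genes did. They were Mgl2 (above), Fcrls (0.57 ± 0.18, adjusted p = 0.0123) and Mrc1 (0.33 ± 0.13, adjusted p = 0.0432). In the same comparison 4 fell, where 15.6% of all genes did: Cbr2 (above), F13a1 (-0.65 ± 0.25, adjusted p = 0.0382), Folr2 (-0.47 ± 0.08, adjusted p = 5.94e-06) and Ednrb (-0.51 ± 0.20, adjusted p = 0.045). Without Rosa26 replicate 5 of day 13, the only Low-input control, the Fcrls difference was 0.36 (adjusted p = 0.144). Folr2 did not pass with no protocol term (-0.34, adjusted p = 0.118). F13a1 and Ednrb did not pass with RLE scaling (adjusted p = 0.0522 and 0.0669) or with DESeq2 (0.0633 and 0.0728). F13a1 was also lost without day 4 replicate 1 or 4 or day 13 replicate 2 or 5 (0.0663 to 0.182), Ednrb without day 4 replicate 1, 2, 3 or 4 or day 13 replicate 1, 2 or 5 (0.0517 to 0.182), and Mrc1 without any replicate but replicate 2 of day 4 and replicate 1 of day 13 (0.0614 to 0.121).

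The change of effect between the days was tested as an interaction of target and day. In Atp6v1a cells 7 of the 10 genes had a more negative effect at day 13 than at day 4, where 5.81% of all genes did. The largest of these differences was that of Mgl2, at -1.86 ± 0.45 (adjusted p = 0.00224), and Mrc1 gave -1.35 ± 0.18 (adjusted p = 5.51e-08). Folr2 had the smallest difference of the 7, at -0.64 ± 0.12. Cd163 and Fcrls had the highest adjusted p of the 7 (0.0315 and 0.0316), and both were lost without Atp6v1a replicate 3 of day 13 (adjusted p = 0.0725 and 0.053). Cd163 was also lost without Rosa26 replicate 5 or Atp6v1a replicate 2, 4 or 5 of day 4, or Rosa26 replicate 2 or 4 of day 13 (0.0502 to 0.0697). Fcrls was also lost without Rosa26 replicate 1, 3 or 4 or Atp6v1a replicate 1 or 5 of day 4, or Rosa26 replicate 5 of day 13 (0.0504 to 0.26). In Grn cells 7 of 10 were more negative at day 13, where 5.6% of all genes were, with Mgl2 at -3.10 ± 0.40 (adjusted p = 3.64e-08) and F13a1 at -2.30 ± 0.45 (adjusted p = 0.000193). Cbr2 was lost there without Rosa26 replicate 3 of day 13 (0.0618). In Ctsd cells 0 of 10 passed, where 0.00833% of all genes did, and the Mgl2 difference there was -1.63 ± 0.39 (adjusted p = 0.167). The untested descriptions for F13a1 were -3.01 ± 0.41 in Pik3c3 cells, -2.75 ± 0.41 in Npc1 cells and 0.21 ± 0.30 in Trem2 cells.

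The protocols were unevenly spread over the groups of day 13, so the differences were also taken within each. In Atp6v1a cells F13a1 gave -2.05 within Regular libraries (2 against 4) and -2.57 within Low-input libraries (3 against 1), and Mgl2 gave -1.61 and -2.17. In Grn cells F13a1 gave -2.31 (3 against 4) and -2.58 (2 against 1). The Mgl2 differences in Grn cells were -1.60 and -1.71, the Low-input one not past the test (adjusted p = 0.0942). Cbr2 in Grn cells gave -1.17 (adjusted p = 0.0578) and -0.35 (adjusted p = 0.771), neither past the test. For F13a1 the within-protocol values in Pik3c3 cells were -2.43 (1 against 4) and -1.80 (4 against 1). In Npc1 cells they were -2.07 (2 against 4) and -1.95 (3 against 1). Trem2 cells of day 13 can be compared within Low-input only, against 1 control library, where F13a1 was 3.79, Ednrb 3.04, Cbr2 2.23, Fcrls 1.51, Ltc4s 2.27, Mrc1 1.06, Mgl2 0.79, Cd163 -0.14 and Folr2 -0.24. A Low-input value rests on 1 control library, which is assumed to vary like the others. With the protocol term left out of the fit, Folr2 and Ltc4s in Atp6v1a cells of day 13, Ltc4s in Grn cells of day 13, Mrc1 and Ltc4s in Grn cells of day 4 and Mgl2 in Ctsd cells of day 4 did not pass. Nor did F13a1, Mrc1, Folr2 and Ednrb in Rosa26 cells over time, Folr2 and Fcrls in the Atp6v1a comparison between days (adjusted p = 0.341 and 0.191) or Mrc1 and Ltc4s in the Grn comparison between days (0.0856 and 0.0955).

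**Figure D3:**
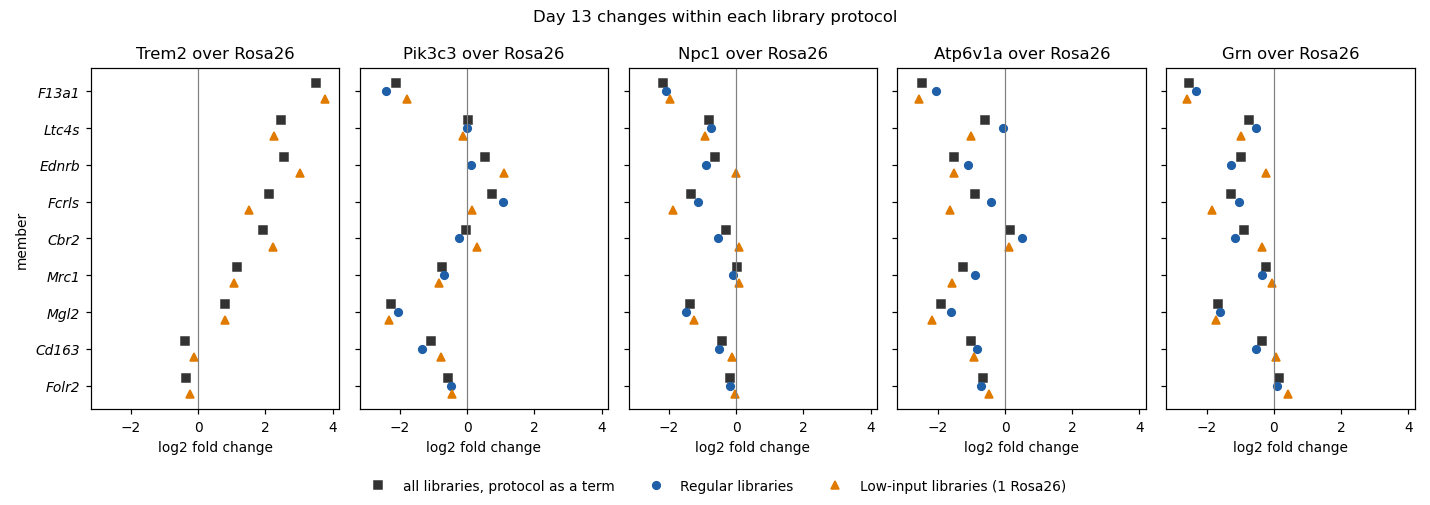
Log2 fold changes at day 13 for 9 genes in Trem2, Pik3c3, Npc1, Atp6v1a and Grn cells over Rosa26 cells, from all libraries with protocol as a term (squares), from Regular libraries (circles; none for Trem2) and from Low-input libraries with 1 control (triangles). For F13a1 the 3 estimates lie on the same side of 0 in each panel that has them. The Pik3c3 circles rest on 1 Regular knockout library against 4 controls.

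Genes that work with the members were read from lists of their partners and pathways. The partner list holds substrates, paralogs and pathway neighbours, with 22 of 52 genes tested (Dpep2, annotated at 2 loci, is counted once). In Atp6v1a cells of day 13, 7 of the 22 fell and 1 rose, where 11.6% of all genes were called lower and 12.8% higher. The lectin Clec10a, the close paralog of Mgl2, averaged 32.2 ± 7.57 CPM in Atp6v1a cells and 117 ± 15.4 CPM in Rosa26 cells (-2.04 ± 0.17, adjusted p = 1.65e-15). Hmox1, which breaks down the haem that Cd163 brings in, fell there by 0.97 on the log2 scale (adjusted p = 2.79e-10). The 1 gene that rose was Tgm2, a tissue transglutaminase related to F13a1 (0.76 ± 0.16, adjusted p = 0.000113).

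In Grn cells of day 13, 5 of the 22 partners fell and 3 rose, where 12.7% of all genes were called lower and 12.5% higher, so the count that rose is at that share. Clec10a fell to 51.3 ± 21 CPM in Grn cells, against 117 ± 15.4 CPM in Rosa26 cells (-1.25 ± 0.17, adjusted p = 1.73e-08). Cysltr1, a receptor for the cysteinyl leukotrienes made downstream of Ltc4s, fell as well (-1.05 ± 0.15, adjusted p = 9.43e-08), while Cbr1, another carbonyl reductase, rose (0.84 ± 0.13, adjusted p = 5.27e-07). At day 4 in Grn cells 1 of 22 rose, Pla2g4a, which frees arachidonic acid, and 1 fell, where 4.45% of all genes were called higher and 3.6% lower.

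In the knockouts that chose the members, the partner counts are given beside their backgrounds and nothing is read from them. Trem2 cells of day 4 had 7 of 22 higher and 2 lower, where 11.4% and 12.9% of all genes were called, and at day 13 had 8 higher and 3 lower, where 11.3% and 10.9% were. The 5-lipoxygenase gene Alox5, the step before Ltc4s, averaged 14.7 ± 4.47 CPM in Trem2 cells of day 4 and 2.48 ± 1.61 CPM in Rosa26 cells, and 6.17 ± 2.01 CPM in Trem2 cells of day 13 and 0.931 ± 0.584 CPM in Rosa26 cells (SD, n = 5 each). Tgm2 went the other way from F13a1 there, at -1.81 ± 0.20 and -0.77 ± 0.18. Pik3c3 cells of day 13 had 4 of 22 higher and 5 lower, where 7.11% and 6.1% of all genes were called, with Clec10a at -2.21 ± 0.18 and Tgm2 at 1.67 ± 0.16. Npc1 cells of day 13 had 0 higher and 3 lower, where 2.71% and 1.76% were called. At day 4 none of the 22 passed in Pik3c3 cells, where 0.175% of all genes were called in either direction, or in Npc1 cells, where 0.00833% were.

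Of 21 other marks of resident macrophages listed, 17 were tested. In Atp6v1a cells of day 13, 15 of the 17 fell and 0 rose, where 11.6% of all genes were called lower and 12.8% higher, with a median of -0.87 beside 0.02 over all genes. The iron exporter Slc40a1 averaged 51 ± 26.2 CPM in Atp6v1a cells and 187 ± 62.2 CPM in Rosa26 cells (-1.95 ± 0.25, adjusted p = 2.74e-09). The selenium carrier Selenop (-1.65 ± 0.12, adjusted p = 2.58e-18) and Mertk, a receptor for dying cells (-1.44 ± 0.15, adjusted p = 3.07e-12), fell with it.

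In Grn cells of day 13, 9 of the 17 fell and 2 rose (median -0.40), where 12.7% of all genes were called lower and 12.5% higher. Klf2 (-0.90 ± 0.15, adjusted p = 2.98e-06), Adgre1 (-0.79 ± 0.10, adjusted p = 2.28e-09) and Stab1 (-0.71 ± 0.14, adjusted p = 5.58e-05) fell. Cd5l, a scavenger receptor-family protein secreted by macrophages, rose to 1208 ± 266 CPM in Grn cells, against 500.2 ± 81.6 CPM in Rosa26 cells (1.27 ± 0.15, adjusted p = 1.41e-09). At day 4 in Grn cells 5 of 17 fell and 0 rose (median -0.20), where 3.6% and 4.45% of all genes were called, among them C1qa (-0.59 ± 0.14, adjusted p = 0.00419), which is the opposite side from the 3 members that rose. None of the 17 passed in Atp6v1a cells of day 4, where 0.00833% of all genes did, or in Ctsd cells of either day. In Ctsd cells 0.05% of all genes were called higher and 0.075% lower at day 4, and 0.2% in either direction at day 13.

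In the comparisons that chose the members, again as a description, Trem2 cells had 10 of the 17 higher and 4 lower at day 4 (median 0.55), where 11.4% and 12.9% of all genes were called. At day 13 they had 12 higher and 1 lower (median 0.89), where 11.3% and 10.9% were. Lyve1, a hyaluronan receptor often seen with F13a1 and Mrc1, averaged 4.14 ± 1.69 CPM in Trem2 cells of day 4 and 0.379 ± 0.374 CPM in Rosa26 cells. Stab1 averaged 502 ± 137 CPM in Trem2 cells of day 13 and 117 ± 15.5 CPM in Rosa26 cells. Cd5l differed by -0.78 ± 0.15 in Trem2 cells of day 4 and by 1.58 ± 0.16 in Pik3c3 cells of day 13. Pik3c3 cells of day 13 had 3 of 17 higher and 5 lower, where 7.11% and 6.1% of all genes were called, with the chemokine Pf4 at -1.20 ± 0.12. Npc1 cells of day 13 had 1 higher and 5 lower, where 2.71% and 1.76% were called. In Rosa26 cells over time 4 rose and 5 fell, where 15% and 15.6% of all genes did, Slc40a1 among the first (1.42 ± 0.24) and Pf4 among the second (-1.19 ± 0.11).

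**Figure D4:**
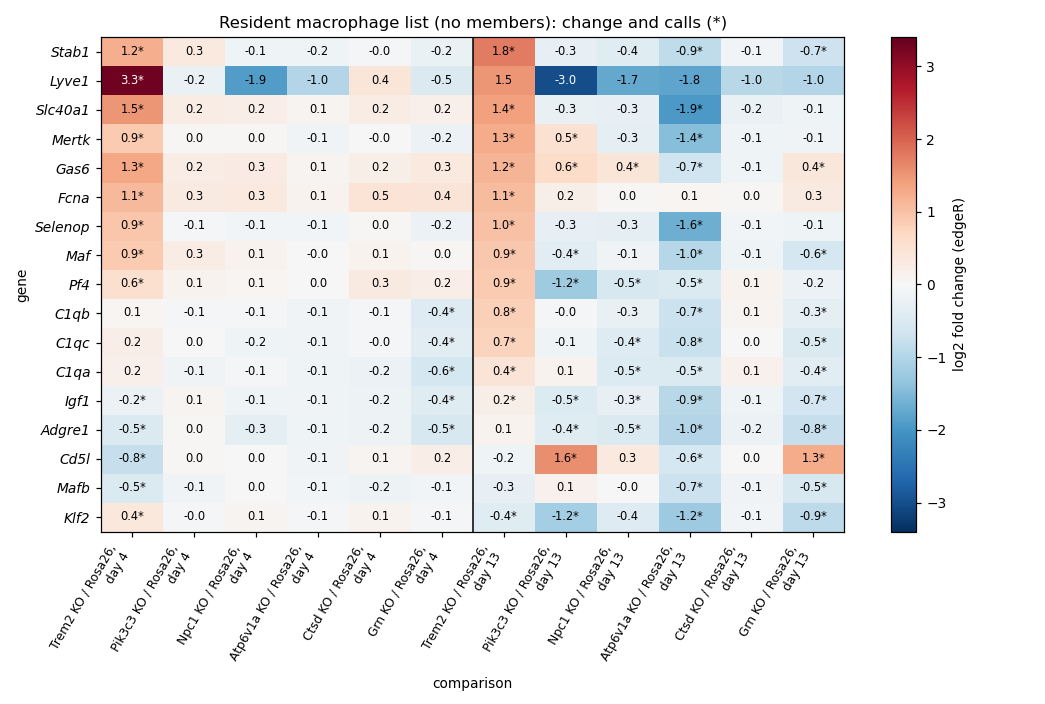
Fitted log2 fold changes of the 17 tested resident macrophage genes outside the 10 members, for each knockout over Rosa26 at day 4 (left block) and day 13 (right block); red is higher and blue lower in the knockout, and an asterisk marks an adjusted p under 0.05. The Atp6v1a column of day 13 has 15 genes called lower and the Trem2 column of day 13 has 12 called higher.

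Genes of the interleukin-4 pathway, 15 of 27 tested, did not move as a body. In Atp6v1a cells of day 13, 5 fell and 3 rose, where 11.6% of all genes were called lower and 12.8% higher. The chemokine Ccl24 fell to 0.0452 ± 0.101 CPM in Atp6v1a cells, against 1.03 ± 0.375 CPM in Rosa26 cells, and Clec7a (Dectin-1) fell by 1.18 on the log2 scale (adjusted p = 4.08e-07). In Grn cells of day 13, 3 fell and 1 rose, where 12.7% and 12.5% of all genes did, with the transcription factor Klf4 at -1.02 ± 0.14 (adjusted p = 3.51e-08). At day 4 in Grn cells 2 fell and 0 rose, where 3.6% and 4.45% did. In Trem2 cells, where F13a1, Mrc1 and Mgl2 were high, 5 of the 15 were lower and 2 higher at day 4, against backgrounds of 12.9% and 11.4%, and 4 were lower and 3 higher at day 13, against 10.9% and 11.3%. There Egr2 differed by -2.70 ± 0.33 and -2.50 ± 0.39, Clec7a by -2.08 ± 0.20 and -2.10 ± 0.20, and the receptor Il4ra by 0.43 ± 0.15 and 0.88 ± 0.17.

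Glucocorticoids raise Cd163 and other members in macrophages, and 8 of 8 listed genes of the glucocorticoid response were tested. The list includes Nr3c1, the receptor itself, which was among those called lower in Atp6v1a and Grn cells of day 13 (-0.49 ± 0.11 and -0.67 ± 0.11). In Atp6v1a cells of day 13, 3 fell and 1, the kinase Sgk1, rose, at 153 ± 51.9 CPM in Atp6v1a cells and 41.8 ± 11.2 CPM in Rosa26 cells (adjusted p = 7.16e-12), where 11.6% of all genes were called lower and 12.8% higher. The count was also 3 lower and 1 higher in Grn cells of day 13, where 12.7% and 12.5% were called, with Dusp1 at -0.89 ± 0.15 (adjusted p = 7.24e-06). Of 9 tested genes of the classical, inflammatory state, 2 fell and 1 rose in Atp6v1a cells of day 13 and 2 fell in Grn cells of day 13, counts close to those same shares. Cd86 fell in both (-0.92 ± 0.19 and -1.16 ± 0.20). In Pik3c3 cells of day 13 the chemokine Ccl5 averaged 34.3 ± 7.99 CPM, against 0.789 ± 0.678 CPM in Rosa26 cells.

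Across the 14 groups, with the protocol difference removed, the members did not form 1 block. F13a1, Ltc4s and Ednrb followed each other closely, with Pearson r of 0.93 for F13a1 and Ednrb, 0.92 for F13a1 and Ltc4s and 0.92 for Ltc4s and Ednrb. F13a1 gave 0.82 with Mrc1, 0.81 with Cbr2 and 0.65 with Mgl2. Folr2 and Cd163 followed each other (0.77), but Folr2 and F13a1 hardly did (0.13). The groups share libraries of 1 culture series, and the 2 Trem2 groups weigh heavily in each r, so these are descriptions. The genes most like F13a1 over all 14 groups were Gm44751 (0.976), Ermard (0.974), Fam43a (0.961), Pepd (0.959) and Zcchc24 (0.950). Those most like Mrc1 were Slc45a4 (0.951), the transcription factor Maf (0.943), Stard8, Itsn1 and Arhgap12, and those most like Mgl2 were Ighmbp2 (0.889) and Zfp942 (0.860).

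Markers of other cells moved with some of these groups, and their part in the results was not tested. The sums here and below are CPM with no protocol term. At day 13 all 5 Trem2 and 4 of 5 Pik3c3 libraries were Low-input, against 1 of 5 Rosa26 libraries. The part of the protocol in the sums was not tested. The 6 monocyte markers, mostly Ccr2, summed to 8.96 to 20.6 CPM in Trem2 cells of day 4 and 18 to 29.2 CPM in Grn cells, against 30.7 to 46.6 CPM in Rosa26 cells. At day 13 they summed to 3.21 to 5.13 CPM in Trem2 cells, 3.14 to 6.32 CPM in Atp6v1a cells and 2.44 to 14.1 CPM in Grn cells, against 13.9 to 32.4 CPM in Rosa26 cells. Ly6c2 was at 0 in the Trem2, Grn and Rosa26 cells of day 13. The monocyte sum was 3.145 to 6.685 CPM in Pik3c3 cells and 6.586 to 19.04 CPM in Npc1 cells of day 13, the latter range overlapping the controls. The 5 stromal markers, Sparc the highest of them, summed to 4.27 to 65 CPM in Trem2 cells of day 13, 3.85 to 19.4 CPM in Atp6v1a cells and 3.1 to 7.94 CPM in Grn cells, against 22 to 299 CPM in Rosa26 cells, whose highest value is the Low-input library. The 4 eosinophil markers, nearly all Ccr3, summed to 11.1 to 21.6 CPM in Trem2 cells of day 13, 10.8 to 21.9 CPM in Atp6v1a cells and 20.1 to 35.4 CPM in Grn cells, against 50.6 to 58.6 CPM in Rosa26 cells. The granule genes Epx and Prg2 were at or under 0.267 CPM in every library of these 4 groups. At day 4 the eosinophil sum was 8.53 to 12.5 CPM in Trem2 cells and 25.8 to 33 CPM in Grn cells, against 47.2 to 62.4 CPM in Rosa26 cells. The macrophage sum was 22020.0 to 24190.0 CPM in Trem2 cells of day 13, against 10180.0 to 14730.0 CPM in Rosa26 cells.

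Other lists also separated from the controls, again in CPM with no protocol term. The 6 microglia markers, Fcrls not among them, summed to 263 to 294 CPM in Trem2 cells and 256 to 321 CPM in Pik3c3 cells of day 13. Rosa26 cells of that day had 156 to 219 CPM. The ranges of Atp6v1a (165 to 248 CPM), Npc1 (147 to 198 CPM) and Grn cells (132 to 175 CPM) overlapped the control range. In Trem2 cells of day 4 the microglia sum was 140.5 to 165.3 CPM, against 147.8 to 162.8 CPM in Rosa26 cells. At day 13 the 8 neutrophil markers, nearly all S100a8, summed to 7.51 to 16 CPM in Atp6v1a cells, against 1 to 5.01 CPM in Rosa26 cells. Pik3c3 cells of day 13 had a neutrophil sum of 8.29 to 12.9 CPM, also above the controls. The 7 dendritic cell markers summed to 0.452 to 2.34 CPM in Atp6v1a cells and 1.78 to 2.52 CPM in Grn cells of day 13, against 2.73 to 4.85 CPM in Rosa26 cells. The 5 erythroid markers summed to 0.961 to 3.39 CPM in Trem2 cells and 0 to 2.15 CPM in Grn cells, against 3.66 to 20.1 CPM in Rosa26 cells. In Grn cells of day 4, where 3 members rose, several lists were higher than in the controls. The sums there were 14.2 to 26.1 CPM for stromal markers in Grn cells, against 3.44 to 13.7 CPM in Rosa26 cells, and 7.06 to 23.5 CPM for erythroid markers in Grn cells, against 1.01 to 4.23 CPM in Rosa26 cells. The 4 endothelial markers gave 8.48 to 13.9 CPM in Grn cells, against 4.37 to 7.3 CPM in Rosa26 cells, and the 5 oligodendrocyte markers 138 to 197 CPM, against 123 to 129 CPM. The 5 osteoclast markers were lower, at 5.5 to 15 CPM in Trem2 cells and 15.8 to 21.2 CPM in Grn cells of day 4, against 21.8 to 28.4 CPM in Rosa26 cells, and at 16.9 to 22.2 CPM in Trem2 cells of day 13, against 35.5 to 69.3 CPM in Rosa26 cells. Pik3c3 cells of day 13 had an osteoclast sum of 16.3 to 33.5 CPM, also below the controls.

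All 7 astrocyte markers and all 8 neuron markers, which cultured macrophages should lack, were counted in every group. The astrocyte sum was 64.2 CPM in the Low-input Trem2 library of day 4 and 162.9 to 212.5 CPM in the other 4, and 113 to 149 CPM in Grn cells of day 4, against 42.8 to 70.1 CPM in Rosa26 cells. The neuron sum was 30.0 CPM in that Low-input Trem2 library and 118.4 to 138.9 CPM in the other 4, and 47.8 to 112 CPM in Grn cells of day 4, against 19.2 to 39.6 CPM in Rosa26 cells. Ednrb is also an astrocyte gene in brain. In the Low-input Trem2 library, the one with the lowest of these sums, Ednrb read 148 CPM, the lowest of the 5 Trem2 libraries of day 4 although above every Rosa26 library of that day, and F13a1 read 149 CPM, the highest of the 5. At day 13 the astrocyte sum was 34.3 to 59.6 CPM in Trem2 cells, against 41.8 to 172 CPM in Rosa26 cells, the lower control value being the Low-input library. That library also had the lowest Ednrb of these controls, 19.9 CPM. Where Ednrb fell at day 13, the median astrocyte sum was 49.5 CPM in Grn and 67.9 CPM in Atp6v1a cells, against 126.7 CPM in Rosa26 cells. The median neuron sum was 22.1 and 37.6 CPM, against 110 CPM. All these ranges overlap the controls, and their part in the Ednrb falls was not tested. Markers of mast cells or basophils, which also make Ltc4s, summed to at most 2.29 CPM in any library.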

How the data were processed

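The authors deposited estimated counts per gene (Salmon and GRCm39, per the submitters' processing notes) and log2 CPM values. All tests used the deposited estimated counts, rounded to whole numbers (31.2% of values above 0 were not whole). The deposited log2 values served only as a check of the columns. Libraries were mapped to groups by their titles. Printed CPM scale each library by its own total count. The edgeR quasi-likelihood test with TMM scaling (R 4.3.3, edgeR 4.0.16, limma 3.58.1) was fitted to all 69 libraries, with a term for each group of target and day and a term for library protocol. Genes were kept by filterByExpr, leaving 12008. A call is an adjusted p (Benjamini-Hochberg over all 12008 genes) under 0.05. The script was tested on simulated data.

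The members and lists were chosen with earlier results of these data known. Named genes are all members, and for each list and comparison at most the 3 called genes of largest change in each direction. Alternatives were DESeq2 (1.42.0), RLE scaling, no filter, no protocol term, a replicate block, each protocol alone and leaving out each library. Intervals cover counting error only. Replicates are pools of mice, and p-values measure the spread between these libraries. Whether same-numbered libraries share a pool is not stated. Promoter coordinates and sequences are RefSeq's (GRCm38.p6), and the words shared between transcript ends are from GENCODE M21 transcripts. Neither was mixed with counts.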

Additional observations from a re-analysis of the deposited data

Results flagged for a closer look

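On log2 CPM with the protocol difference removed, 11 of 128 checks of a gene in a group found a library far from the rest, where chance gives about 1 in 20. Grn replicate 1 of day 4 read low for Mrc1 (985.9 CPM), and so did Rosa26 replicate 1 of day 13 (980.0 CPM). Pik3c3 replicate 2 of day 13 held all 10 Cd209f counts of its group (3.18 CPM). Folr2 was low in Pik3c3 replicate 3 of day 4 (614 CPM) and in Atp6v1a replicate 5 of day 13 (379 CPM). Cd163 was low in Atp6v1a replicate 3 of day 13 (1.60 CPM). Ltc4s was low in Trem2 replicate 5 of day 4 (37.8 CPM) and in Atp6v1a replicate 1 of day 4 (4.13 CPM). Fcrls was high in Atp6v1a replicate 5 of day 13 (34.8 CPM). Ednrb was low in Pik3c3 replicate 1 of day 4 (48.8 CPM) and in Atp6v1a replicate 1 of day 4 (17.9 CPM). Atp6v1a replicate 1 of day 4 stood low for both Ltc4s and Ednrb.

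The effect of a knockout differed between the days by the interaction test in 14 cases. In Atp6v1a cells the log2 effect at day 13 minus that at day 4 was -1.62 for F13a1, -1.86 for Mgl2, -1.35 for Mrc1, -0.64 for Folr2, -1.18 for Cd163, -0.80 for Fcrls and -1.29 for Ednrb. In Grn cells it was -2.30 for F13a1, -3.10 for Mgl2, -0.65 for Mrc1, -1.39 for Cbr2, -1.47 for Ltc4s, -1.36 for Fcrls and -1.38 for Ednrb. In Grn cells Mgl2 and Ltc4s were higher than in Rosa26 cells at day 4 and lower at day 13, past the test on both days.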

How the results depend on the processing

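Of 39 called effects of the members, 15 held under every alternative run and 24 were lost under at least 1. F13a1, Mgl2, Mrc1 and Ednrb in Atp6v1a cells of day 13 and F13a1 and Fcrls in Grn cells of day 13 were among the 15. Folr2 in Trem2 cells of day 13 changed direction, to 0.10 with no protocol term, and no called effect of the other comparisons did. Macrophage genes below are the tested genes of the resident, interleukin-4, glucocorticoid and classical lists. With Regular libraries only, the members called were 5 in Atp6v1a cells of day 13, 4 in Rosa26 cells over time and 3 in the Atp6v1a comparison between days, and the macrophage genes called were 2 in Npc1 cells and 9 in Pik3c3 cells of day 13. With Low-input libraries only, 2 members were called in Grn cells of day 13, and the macrophage genes called at day 13 were 18 in Atp6v1a, 8 in Grn, 7 in Pik3c3 and 0 in Npc1 cells, against 30, 21, 16 and 8 with all libraries. With no protocol term, the members called were 0 in Ctsd cells of day 4, 1 in Grn cells of day 4 and 3 in Rosa26 cells over time, and the macrophage genes called were 4 in Grn cells of day 4 and 2 in Npc1 cells of day 13. Over all genes, 4 were then called in Ctsd and 300 in Grn cells of day 4, against 15 and 966 with the term. Rosa26 cells over time had 2191 called and Npc1 cells of day 13 had 502, against 3674 and 536. With no filter, 3 members were called in Ctsd cells of day 4, 1 in the Ctsd comparison between days, and 1 macrophage gene in Pik3c3 cells of day 4. Of the 44180 genes then tested, 81, 101 and 55 were called in these comparisons, against 15, 1 and 21 of 12008 with the filter. DESeq2 called 2 members in Ctsd cells of day 4, where it called 29 of all 12008 genes. The cause of these shifts was not tested. The protocol subsets also hold fewer libraries, and the part of that in the shifts was not tested either. All-gene calls with Regular libraries were 2061 in Atp6v1a cells and 101 in Npc1 cells of day 13, of 12608 genes. With all libraries they were 2927 and 536, of 12008. Regular libraries gave 3659 in Rosa26 cells over time and 1078 in the Atp6v1a comparison between days, against 3674 and 1366. Low-input fits, with a single control, also called fewer of all genes in Atp6v1a, Grn, Pik3c3 and Npc1 cells of day 13. So did the Pik3c3 fit with a single Regular library.

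A replicate block called 3 members in Ctsd cells of day 4 (Mgl2, Cbr2 and Ltc4s) and 1 in the Ctsd comparison between days (Mgl2, -1.68, adjusted p = 0.0406), and Cbr2 passed in Grn cells of day 4 (0.52, adjusted p = 0.0298). Over all genes the block called 34, 7 and 1319 in these comparisons, against 15, 1 and 966 without it. In Atp6v1a cells of day 13 it called 3321 genes, against 2927. The labels do not say that a number marks a shared pool, so the numbers were not treated as pairs. Same-numbered libraries correlated in their deviations at r of -0.103 to 0.396, not all of them positive. The mean correlation with other numbers was -0.039 to -0.005. Each knockout library was set against 4 or 5 Rosa26 libraries, and 31 of 59 correlated best with their own number. That is a hint of shared replicates from the data and not from the design. Leaving out 1 library at a time gave 7 to 8 members called in Atp6v1a cells of day 13, 4 to 6 in Grn cells of day 13, 1 to 4 in Grn cells of day 4, 0 to 1 in Ctsd cells of day 4, 3 to 6 in Rosa26 cells over time, 5 to 8 for Atp6v1a and 6 to 7 for Grn between days, and 3 to 8 macrophage genes in Npc1 cells of day 13. Calls over all genes were not counted in these runs. Depth limits Cd209f, Cd163 and Mgl2, at 0 to 25, 6 to 45 and 3 to 45 counts per library, and F13a1 in the Pik3c3, Npc1, Atp6v1a and Grn cells of day 13, at 2 to 10 counts per library, and the single Low-input control limits every value of day 13 that rests on it.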
